A study of Mus musculus with 2 samples.

Results

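The Lin28, Hmga and Igf2bp genes are 3 small families of regulators known for high levels in the embryo, most of which are switched down as development proceeds. Their 7 mouse members are Lin28a, Lin28b, Hmga1, Hmga2, Igf2bp1, Igf2bp2 and Igf2bp3, chosen by name through their gene identifiers in the GENCODE M21 annotation. All 7 were found among the 43346 mouse genes of the gene tables, and all 7 are among the 21474 annotated there as protein-coding. Total RNA was sequenced from the forebrain of B6NCrl mouse embryos at 12.5 days. Each library was made from pooled forebrains of both sexes, from 120 embryos in replicate 1 and from 68 embryos in replicate 2. Both came from 10 ng of RNA longer than 200 nucleotides, with spike-in RNA added. The tables held 33711030 expected counts in replicate 1 and 34578499 in replicate 2. There is 1 group and no treatment, genotype or other age, so the values below are levels with their spread over 2 pools, and no test between conditions can be made.

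LIN28A and LIN28B are RNA-binding proteins with a cold shock domain and zinc knuckles that bind the precursors of the let-7 microRNAs and block their maturation. Mature let-7 in turn represses mRNAs that carry matches to its seed, and textbook targets include Lin28a, Lin28b, Hmga2 and the Igf2bp genes. HMGA1 and HMGA2 are small chromatin proteins whose AT-hooks bind the minor groove of AT-rich DNA, and HMGA2 is known to sustain the self-renewal of fetal neural stem cells. The IGF2BP proteins bind mRNAs through RRM and KH domains and affect their stability, transport and translation. IGF2BP1, also called ZBP1, is known for carrying beta-actin mRNA in neurons.

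The let-7 sequences are shown because they tie the families together. RefSeq (GRCm38.p6) holds 9 distinct mature sequences of the let-7 and miR-98 group, and they share 1 seed. The miR-125 family, encoded beside several let-7 genes and also known to target Lin28a, has another seed. Capitals mark bases 2 to 8, the seed.
let-7a-5p: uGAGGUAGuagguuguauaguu
let-7b-5p: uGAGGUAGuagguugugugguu
let-7c-5p: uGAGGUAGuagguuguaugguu
let-7d-5p: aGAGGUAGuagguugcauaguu
let-7e-5p: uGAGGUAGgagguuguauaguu
let-7f-5p: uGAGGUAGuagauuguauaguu
let-7g-5p: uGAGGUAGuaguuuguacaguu
let-7i-5p: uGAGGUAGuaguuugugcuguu
miR-98-5p: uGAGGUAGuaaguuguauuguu
miR-125a-5p: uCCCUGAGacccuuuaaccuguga
miR-125b-5p: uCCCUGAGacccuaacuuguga
The capitals read GAGGUAG in every let-7 and miR-98 line and CCCUGAG in both miR-125 lines.

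Within the let-7 hairpins, LIN28 is known to contact a GGAG motif next to the 3′ arm. Of the 12 mouse let-7 and miR-98 hairpins in RefSeq, 9 held GGAG between the mature arms and 3 did not. The motif ended 4 bases before the 3′ mature sequence in 8 of the 9 and 3 bases before it in let-7g. GGAG is in capitals in the let-7g and let-7a-1 lines. The hairpins without it were those of miR-98, let-7b and let-7c-2.
Mirlet7g: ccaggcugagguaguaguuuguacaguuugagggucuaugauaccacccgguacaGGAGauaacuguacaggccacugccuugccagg
Mirlet7a-1: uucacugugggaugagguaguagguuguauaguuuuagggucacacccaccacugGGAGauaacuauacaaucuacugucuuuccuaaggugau
Mir98: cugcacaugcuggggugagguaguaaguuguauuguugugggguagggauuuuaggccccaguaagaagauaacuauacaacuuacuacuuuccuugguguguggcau
A missing match says only that these letters are not between the arms of that hairpin.

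The 3′UTRs of the 7 genes all held at least 1 match to the let-7 seed, CTACCTC, read on the transcript strand of the main coding transcript. Across all 19705 mouse 3′UTRs with 1 transcript per gene, 7.77% held such a match. Among 3′UTRs within 20% of the member's own length, the share was 14.4% for Lin28a, 25.2% for Lin28b, 8.06% for Hmga1, 15.5% for Hmga2, 35.3% for Igf2bp1, 12.5% for Igf2bp2 and 13.0% for Igf2bp3. Several of these genes are known let-7 targets, so the matches describe the genes and are no independent finding. A match is not a shown site. The lines give 1 match per gene on GRCm38, with the letters that pair with the seed in capitals.
Lin28a, chr4:134005189-134005210 (-): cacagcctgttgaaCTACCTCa
Lin28b, chr10:45381022-45381043 (-): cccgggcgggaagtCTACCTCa
Hmga1, chr17:27563278-27563299 (+): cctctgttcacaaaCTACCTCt
Hmga2, chr10:120364224-120364245 (-): ccgacattcaatttCTACCTCa
Igf2bp1, chr11:95961778-95961799 (-): ctgtgcgaagtaaaCTACCTCa
Igf2bp2, chr16:22059473-22059494 (-): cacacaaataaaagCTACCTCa
Igf2bp3, chr6:49086787-49086808 (-): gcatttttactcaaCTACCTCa
In 6 of the 7 lines the match is followed by an a, which makes it an 8-base match, and in Hmga1 it is followed by a t.

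The genes differed in how many let-7 matches they held. Lin28b, Hmga2 and Igf2bp1 had 4 each, Lin28a had 2, and Hmga1, Igf2bp2 and Igf2bp3 had 1 each. Only 0.0457% of all 3′UTRs held 4 or more. Among 3′UTRs of similar length, as many matches as in the member were found in 0 of 1693 for Hmga2, in 2 of 890 for Lin28b and in 1 of 371 for Igf2bp1. The first matches of Hmga2 and Lin28b lay 21 and 36 bases after the stop codon, and that of Igf2bp1 lay 1715 bases after it. Lin28a, Lin28b and Igf2bp3 also held 1 match each to the miR-125 seed, CTCAGGG, and the other 4 genes held none. Such a match was found in 11.5% of all 3′UTRs, and in 25.8%, 31.0% and 20.3% of those of similar length to Lin28a, Lin28b and Igf2bp3. The miR-125 matches are shown with the pairing letters in capitals.
Lin28a, chr4:134005301-134005322 (-): ggtacatgagcaatCTCAGGGa
Lin28b, chr10:45378798-45378819 (-): gacaaagaactttgCTCAGGGa
Igf2bp3, chr6:49085531-49085552 (-): tctcctgcttgggtCTCAGGGg

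**Figure D1:**
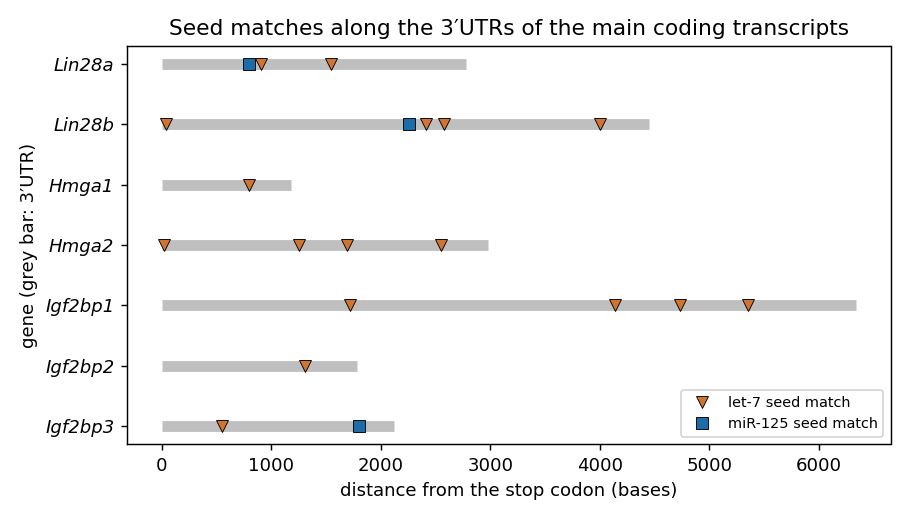
Positions of seed matches in the 3′UTR of the main coding transcript of each gene, in bases from the stop codon. Triangles are let-7 matches and squares miR-125 matches; grey bars give the 3′UTR, from 1179 bases in Hmga1 to 6337 bases in Igf2bp1. Each gene has at least 1 triangle, and Lin28b, Hmga2 and Igf2bp1 have 4.

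Of the 7 genes, 6 reached 1 TPM (a share of all transcripts, corrected for length) in both pools, where 60.0% of protein-coding genes did so. The exception was Lin28a. The median over the 7 genes of the mean level was 68.4 TPM, against 4.60 TPM over all protein-coding genes and 21.1 TPM over the 13092 with a mean of 1 TPM or more. In bulk tissue, fewer cells of a type and less RNA per cell cannot be told apart.

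Both Lin28 genes were the lowest of the set, and Lin28b was above Lin28a. Lin28b (chr10:45376620-45486395, minus strand) was measured at 6.73 TPM and 6.44 TPM in replicates 1 and 2, a mean of 6.59 ± 0.205 TPM (SD, n = 2). Lin28a (chr4:134003330-134018841, minus strand) had 1.25 and 0.76 TPM, a mean of 1.01 ± 0.346 TPM (SD, n = 2). These rest on 719 and 717 expected counts for Lin28b and on 59 and 54 for Lin28a, so Lin28a is the least precisely measured gene of the set. Its deposited intervals ran from 0.943 to 2.39 TPM and from 0.781 to 2.11 TPM, and its level in replicate 2 lay below its own interval. Lin28b was 5.38-fold and 8.47-fold higher than Lin28a per length, and the intervals of the genes were apart in both pools. With the posterior mean TPM, to which the intervals belong, Lin28b was 4.07-fold and 4.55-fold higher. On log2(TPM + 1), Lin28b over Lin28a was 1.78 in replicate 1 and 2.08 in replicate 2, more than the 0.35 by which Lin28a itself differed between the pools. Part of that difference lies in 1 transcript. In replicate 1, 3.34 counts were assigned to the short Lin28a-204, of 478 bases, which gave it 35.1% of the gene level. The full-length Lin28a-201, of 3505 bases, had 0.81 and 0.76 TPM.

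Hmga1 was the highest of the 7 genes in both pools. It lies at chr17:27556497-27563674 on the plus strand and had 198 and 184 TPM, a mean of 191 ± 9.32 TPM (SD, n = 2), from 5799 and 5591 counts. Its mean was higher than that of 96.4% of protein-coding genes. Hmga2 (chr10:120361275-120476469, minus strand) had 40.0 and 40.3 TPM, a mean of 40.2 ± 0.240 TPM (SD, n = 2), and was higher than 80.3% of protein-coding genes. The Hmga2 pools differed least of the set, by 0.01 on the log2 scale. Hmga1 exceeded Hmga2 by 4.94-fold and 4.57-fold, with intervals apart in both pools. On the log2(TPM + 1) scale Hmga2 over Hmga1 was -2.28 and -2.17, well beyond the 0.10 between the Hmga1 pools.

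Igf2bp1 and Igf2bp2 were at about the same level when all transcripts are counted, and Igf2bp3 was lower. Igf2bp2 (chr16:22059009-22163299, minus strand) had 86.3 and 84.6 TPM, a mean of 85.4 ± 1.20 TPM (SD, n = 2). Igf2bp1 (chr11:95957163-96005940, minus strand) had 84.3 and 80.4 TPM, a mean of 82.4 ± 2.73 TPM (SD, n = 2). Igf2bp3 (chr6:49085223-49214957, minus strand) had 67.2 and 69.7 TPM, a mean of 68.4 ± 1.79 TPM (SD, n = 2). The difference of Igf2bp1 from Igf2bp2, -0.03 and -0.07 on log2(TPM + 1), did not exceed the 0.07 between the Igf2bp1 pools, and their intervals overlapped in both pools. Igf2bp3 over Igf2bp2 was -0.36 and -0.28, beyond the spread, with intervals apart. Igf2bp3 lay slightly above its own deposited intervals, which ended at 67.0 and 69.5 TPM. Igf2bp1 gave the most reads of the 7 genes, 13053 and 12889 counts, with an average transcript length of 7784 and 7737 bases. Igf2bp2 gave 5566 and 5687 counts and Igf2bp3 gave 5746 and 6207.

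From the highest mean, the order was Hmga1, Igf2bp2, Igf2bp1, Igf2bp3, Hmga2, Lin28b and Lin28a, the same in both pools. Of the 6 steps between neighbours, 5 exceeded the difference between pools of either gene and had intervals apart in both pools. The step that did not was that of Igf2bp2 and Igf2bp1. Below the Hmga and Igf2bp genes came a wide gap, with Hmga2 5.94-fold and 6.26-fold above Lin28b. With 2 values for each gene, the smallest two-sided exact permutation p is 0.333, so no test is given. By family, the Igf2bp genes summed to 238 and 235 TPM, the Hmga genes to 238 and 225 TPM and the Lin28 genes to 7.98 and 7.20 TPM. Igf2bp1 made up 34.9 ± 0.840% of the Igf2bp sum, Igf2bp2 36.2 ± 0.179% and Igf2bp3 29.0 ± 1.02% (SD, n = 2).

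**Figure D2:**
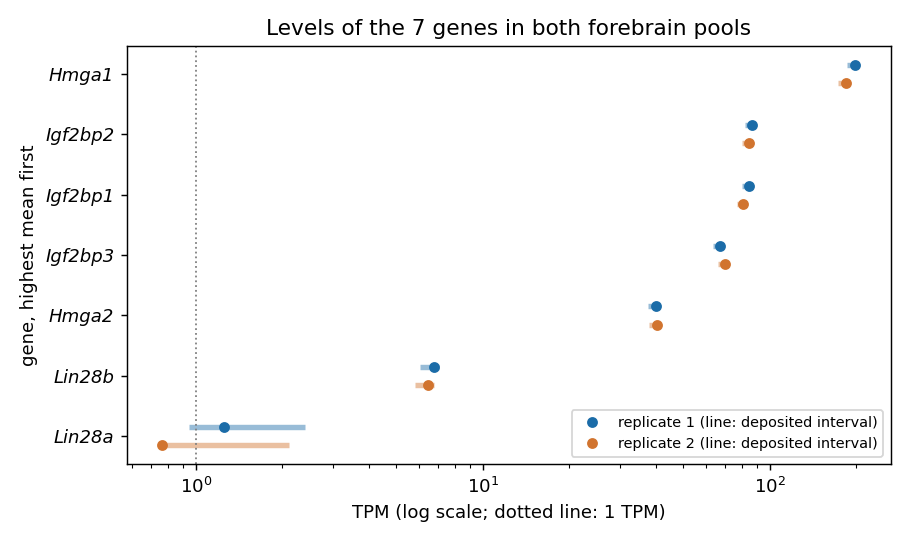
TPM of each gene on a log axis; points are the 2 pools and horizontal lines the deposited interval in each. Hmga1 stands at 198 and 184 TPM, the 3 Igf2bp genes lie between 67.2 and 86.3 TPM, and Lin28a lies about the dotted line at 1 TPM with the widest interval on this axis.

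The transcript tables changed the picture within the Igf2bp family. Of the Igf2bp2 level, 51.8% and 49.7% was assigned to protein-coding transcripts and 48.2% and 49.9% to transcripts annotated as retained intron. The full-length coding Igf2bp2-201, of 592 codons, held 43.3% and 45.9%, and the second coding transcript, Igf2bp2-202, of 524 codons, held 8.46% and 3.86%. Most of the remainder was Igf2bp2-207, with 36.5% and 34.8%. It shares 3259 of its 3267 bases with Igf2bp2-201 and has 8 bases of its own, and it lacks 640 bases of Igf2bp2-201, namely exon 1 (514 bases), exon 2 (61 bases) and the last 65 bases. It has no annotated coding sequence. Only reads that touch those stretches can tell the pair apart. The deposited intervals were 25.0 to 35.6 TPM and 24.0 to 33.4 TPM for Igf2bp2-207, and 33.0 to 39.8 TPM and 34.1 to 41.1 TPM for Igf2bp2-201. Igf2bp2-206, the 1 transcript here that keeps a whole intron of Igf2bp2-201, the 1379 bases of intron 13, held 1.96% and 3.75%. The short Igf2bp2-205, which runs into intron 2, held 7.33% and 7.04%.

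Counting protein-coding transcripts only, Igf2bp1 had 77.8 and 73.7 TPM, Igf2bp3 had 67.2 and 69.7 TPM and Igf2bp2 had 44.7 and 42.1 TPM. Igf2bp2 was then the lowest of the 3 genes in both pools. Igf2bp1 exceeded it by 1.74-fold and 1.75-fold, and Igf2bp3 over Igf2bp2 was 0.58 and 0.72 on log2(TPM + 1). This setting was added after the shares had been seen, and it turns the direction of both comparisons with Igf2bp2. Igf2bp1 exceeded Igf2bp3 by 1.16-fold and 1.06-fold on coding transcripts, by a margin close to the spread between pools. Igf2bp1-201, of 577 codons, held 92.3% and 91.6% of Igf2bp1, and the short Igf2bp1-202, annotated as a processed transcript, held 6.72% and 6.74%. Igf2bp3 has 1 transcript in the tables, of 579 codons.

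**Figure D3:**
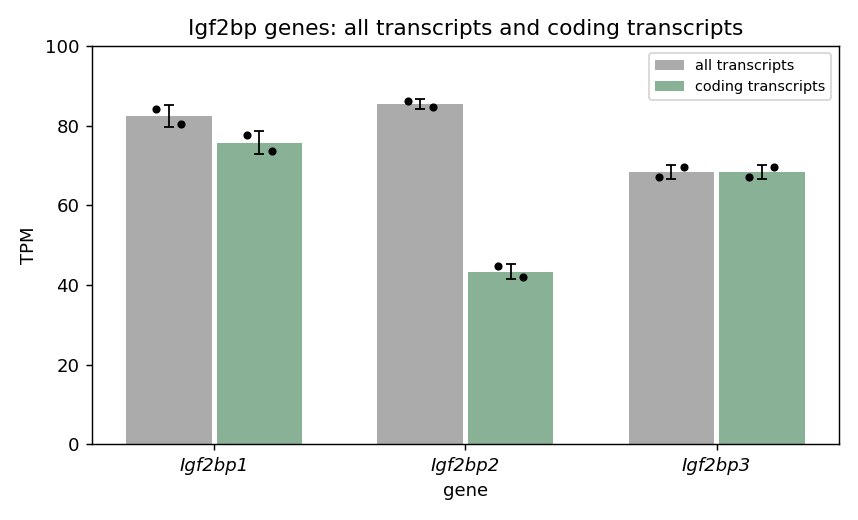
TPM of the 3 Igf2bp genes over all transcripts (grey) and over protein-coding transcripts (green); bars are means, error bars SD and points the 2 pools. Igf2bp2 stands at a mean of 85.4 TPM in grey and 43.4 TPM in green, while Igf2bp1 stands at 82.4 and 75.7 TPM and Igf2bp3 at 68.4 TPM in both.

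Hmga1 was a mixture of its known coding forms, which differ by a short insert between AT-hooks of the protein. Transcripts of the long form, of 106 or 107 codons, held 70.1% and 68.9% of the Hmga1 level, and those of the short form, of 95 or 96 codons, held 29.9% and 31.1%. The long form thus averaged 69.5 ± 0.827% (SD, n = 2). The single most abundant transcript was Hmga1-203, at 116 and 105 TPM, followed by Hmga1-201 of the short form, with 39.4 and 37.4 TPM. The main coding difference between those is a stretch of 33 bases, or 11 codons, in Hmga1-203; Hmga1-201 has 3 coding bases of its own at the edge of a later exon. The stretch lies at chr17:27559671-27559703 on the plus strand (GRCm38) and is in capitals here, with 12 coding bases on each side, from GENCODE M21.
Hmga1-203: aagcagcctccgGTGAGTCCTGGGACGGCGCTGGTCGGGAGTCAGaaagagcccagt
Hmga2 was almost all 1 transcript: Hmga2-201, of 108 codons, held 99.6% in both pools. Lin28b had 1 transcript, of 271 codons.

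**Figure D4:**
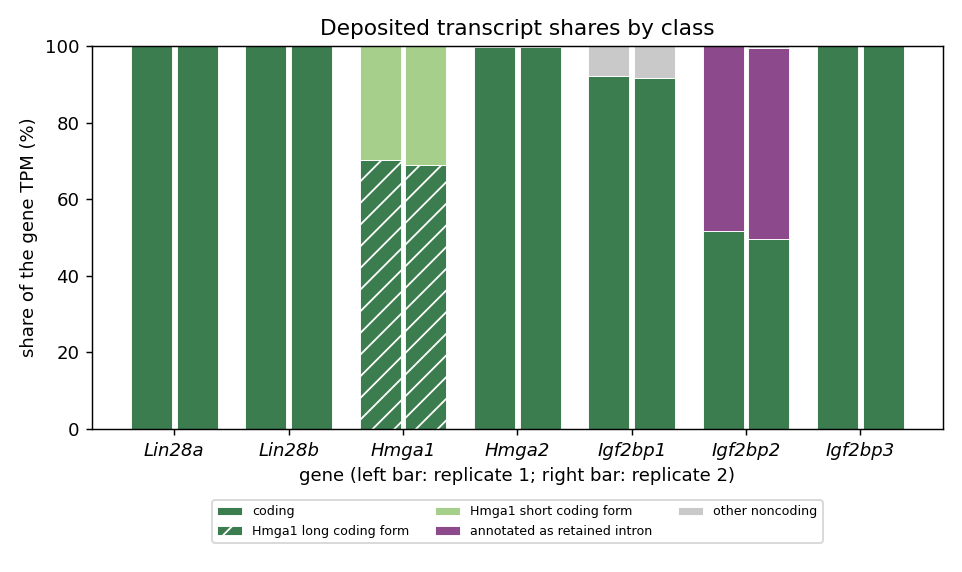
Share of each gene's TPM by transcript class in replicate 1 (left bar) and replicate 2 (right bar). Igf2bp2 is split about evenly between coding transcripts, 51.8% and 49.7%, and those annotated as retained intron; the hatched long form makes up 70.1% and 68.9% of Hmga1.

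Near-identical or overlapping genes touch several of the values. Hmga1b on chromosome 11 matches 1598 bases of Hmga1 at 99.6% identity. It had 4.50 and 4.10 TPM, with intervals of 3.31 to 18.2 TPM and 2.88 to 15.2 TPM, and its counts came to 2.39% and 2.35% of those of Hmga1, so the split between both is uncertain. Igf2bp3 overlaps 1529 bases of Malsu1, a gene on the opposite strand with 44.5 and 52.2 TPM, and no source used here states that strand was used in counting. The antisense genes within Hmga2, 1700006J14Rik and 9230105E05Rik, were at 1.42 and 2.07 TPM and at 0.12 and 0.29 TPM. Parts of Hmga2 match Cox16, Gm20498 and Gm38158 over 320 to 488 bases at 92.4% to 95.0% identity. Cox16 had 109 and 112 TPM, Gm20498 had 18.7 and 20.3 TPM and Gm38158 had 0.21 and 0.60 TPM. The counts of these whole genes came to 51.1% and 53.2% of those of Hmga2. How reads in the matching parts were divided was not tested. No such match of 200 bases or more at 90% identity was found for Lin28a, Lin28b, Igf2bp1 or Igf2bp2.

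The 7 genes differed between the pools by up to -0.35 on log2(TPM + 1), the ratio of replicate 2 to replicate 1 for Lin28a. None of the 7 had deposited intervals that were apart between replicate 2 and replicate 1, where 15.2% of protein-coding genes with a mean of 1 TPM or more did, 7.25% higher and 7.94% lower in replicate 2. No member differed by more than 1.5-fold on log2(TPM + 1), as 1.81% of those genes did. For Lin28a this depended on the added 1. With 0.1 added in its place, the log2 ratio of Lin28a was -0.65, which is more than 1.5-fold. The median size of the log2 ratio was 0.06 over the 7 genes and 0.09 over the expressed protein-coding genes. By TPM, 5 of the 7 were lower and 2, Hmga2 and Igf2bp3, were higher in replicate 2. After scaling expected counts to the spike-ins, which moved the median log2 ratio of expressed protein-coding genes to 0.15, 6 were higher and 1, Lin28a, was lower. With DESeq2 size factors, 6 were lower and 1 was higher. The direction of these small differences thus turned with the scaling. Relative to the median of expressed genes, 5 of the 7 were below and Hmga2 and Igf2bp3 above under the spike-in scaling. A scaling moves every gene and that median by nearly the same amount. The places of the genes about the median were therefore nearly fixed and are no separate result.

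**Figure D5:**
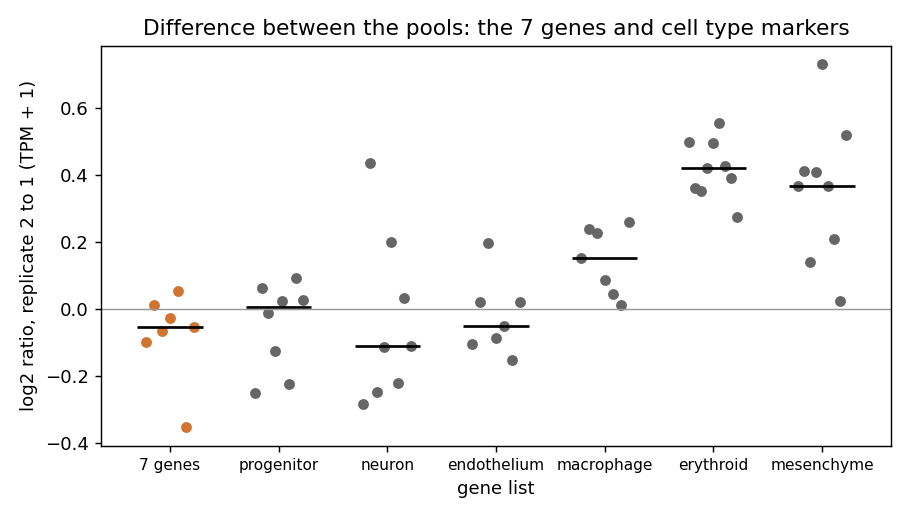
Log2 ratio of replicate 2 to replicate 1 (TPM + 1) for the 7 genes and for cell type markers with a mean of 1 TPM or more; points are genes and lines medians. The 7 genes lie between -0.35, Lin28a, and 0.05, while erythroid and mesenchymal markers have medians of 0.42 and 0.37.

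Markers of the labelled tissue were present: all 8 progenitor and all 8 neuron markers were detected in both pools, with median levels of 109 and 144 TPM. Markers of blood, mesenchyme, vessels and macrophages were detected as well, 9 of 9, 9 of 9, 7 of 7 and 7 of 7. Erythroid markers summed to 12285 and 16459 TPM in replicates 1 and 2, and mesenchymal markers to 730 and 885 TPM. With intervals apart, 7 of 9 erythroid and 8 of 9 mesenchymal markers were higher in replicate 2, against 7.25% of expressed protein-coding genes. Lower in replicate 2 with intervals apart were 5 of 8 neuron and 3 of 8 progenitor markers, against 7.94%. In the other direction, Elavl3 was the 1 neuron marker higher with intervals apart, with 34.1 and 46.5 TPM. The median log2 ratio was -0.11 over the neuron markers and 0.005 over the progenitor markers. All these directions are by TPM. Spike-in scaling moved the median log2 ratio of expressed protein-coding genes to 0.15, and marker values under it are not given. The part of these cell types in the levels of the 7 genes was not tested. Lin28a is also a gene of pluripotent and germ cells: like Lin28a itself, none of the 9 markers of those cells reached 1 TPM in both pools. Dppa5a was the highest with 0.67 and 1.47 TPM, followed by Ddx4 with 0.67 and 0.73 TPM. Nanog had 0.16 and 0.18 TPM, and Utf1 and Zfp42 were at 0 in both.

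Genes that process or degrade let-7 precursors were present throughout. All 14 listed were detected, at a median of 43.9 TPM, and all 14 were above Lin28a. Hnrnpa1, which binds let-7 precursors, had 1230 TPM in both pools. Tut4, which adds the uridine tail after LIN28 recruits it, had 76.5 and 96.1 TPM, and Dis3l2, the exonuclease that degrades tailed precursors, had 33.5 and 34.4 TPM. Tarbp2 and Prkra, partners of Dicer, had 76.8 and 77.1 TPM and 75.9 and 77.5 TPM. The lowest was Trim25, a reported cofactor of that tailing, with 2.99 and 1.83 TPM.

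The let-7 microRNAs themselves are shorter than the RNA selected and were not measured. Of 20 let-7 locus entries listed, 16 were found. Of these, the 13 hairpin entries of the let-7, miR-98 and miR-125 genes were listed at 0 in both pools, and the 3 host genes were detected. The deposited TPM rest on a length from which 99 bases are taken off. This leaves nothing of the entries of 71 to 96 bases, which could only be listed at 0. Among the longer ones, the interval of Mirlet7a-1 reached 143 TPM in replicate 1. The zeros are therefore no measure of absent precursors. Mir99ahg, which holds let-7c-1, had 80.1 and 89.9 TPM. Huwe1, which holds let-7f-2 and miR-98, had 71.3 and 74.8 TPM, and Wdr82, which holds let-7g, had 33.9 and 31.5 TPM. By position, 3110039I08Rik around let-7a-2 had 82.1 and 81.6 TPM, and 6720427I07Rik around let-7a-1, let-7d and let-7f-1 had 2.89 and 3.14 TPM. Spaca6 around let-7e had 35.6 and 38.6 TPM. The genes annotated around let-7b, let-7c-2 and let-7i had no deposited level. The level of a host is no measure of the mature microRNA.

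Other listed let-7 targets spanned a wide range of levels. Of 24, 22 were detected in both pools and 15 had a let-7 match in the 3′UTR. The median over the 24 was 30.8 TPM. Ccnd2 and Ccnd1, cyclins of the G1 phase, were the highest, with 279 and 276 TPM and 206 and 172 TPM. Mycn, a MYC family transcription factor, had 106 and 117 TPM. No let-7 match was found in the 3′UTRs of Ccnd2, Ccnd1 and Mycn. Trim71, a let-7 target of early embryos that has 4 matches, had 0.30 and 0.43 TPM, and Fignl2 had 0.17 TPM in both pools. By mean level, Hmga1 was above 23 of the 24, although Ccnd1 exceeded it in replicate 1. Lin28a was above Trim71 and Fignl2 and below the other 22.

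Within the wider HMG group, Hmga1 took a middle place. The nucleosome-binding Hmgn2 had 3165 and 3005 TPM, Hmgb1 had 1635 and 1507 TPM, Hmgb3 had 702 and 667 TPM and Hmgn1 had 675 and 631 TPM. Of the 10 other HMG genes listed, 5 were above Hmga1 and 5 below, and Hmgb4 was at 0. Among genes that earlier work links to HMGA2, 7 of 9 were detected in both pools. Igf2, a growth factor, had 76.9 and 99.9 TPM, Jun had 87.7 and 83.6 TPM, Plagl1 had 76.5 and 83.9 TPM and Cdkn1a, a cell cycle inhibitor, had 28.7 and 32.6 TPM. Cdkn2a, the locus through which HMGA2 is known to act in mouse neural stem cells, was at 0 in both pools, and Cdkn2b had 0.23 and 0.22 TPM.

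The partners and target mRNAs of the IGF2BP proteins were all present. All 10 partners were detected, with a median of 151 TPM, led by Ybx1 with 1041 and 1097 TPM, Hnrnpab with 698 and 718 TPM, Matr3 with 677 and 661 TPM and Pabpc1 with 230 and 235 TPM. Of the 9 known target RNAs, Actb had 5591 and 5419 TPM, Gap43, a growth cone protein, had 185 and 172 TPM, and Mapt, which encodes tau, had 109 and 94.0 TPM. Igf2, the target that named the family, and H19, its neighbour, were higher in replicate 2 with intervals apart. H19 had 41.9 and 53.7 TPM. Actb, Gap43 and Mapt were lower in replicate 2 by TPM, with intervals apart. Their log2 ratios were -0.05, -0.11 and -0.21, where the median size over expressed protein-coding genes was 0.09. Spike-in scaling moved the median ratio of expressed protein-coding genes to 0.15, and values of the target RNAs under it are not given. The cause of these differences was not tested. All 14 listed genes of N6-methyladenosine, the mark that IGF2BP proteins can read, were detected at a median of 38.3 TPM. The highest were Ythdf2 with 133 and 122 TPM, Fto with 91.5 and 87.3 TPM, Wtap with 90.7 and 71.6 TPM and Ythdf3 with 71.1 and 69.7 TPM. By mean level, Igf2bp1 was above 12 of the 14, although Wtap exceeded it in replicate 1. The 6 other genes with a cold shock domain, the fold that LIN28 carries, had a median of 98.1 TPM. Lin28a was below all 6 in both pools. Lin28b was below 5 of them in both pools, and the lowest, Ybx2, with 7.28 and 6.08 TPM, lay on either side of it.

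Between the pools, intervals were apart for 7 of the 14 genes of let-7 processing and 5 of the 24 other targets. They were apart for 4 of the 10 HMG genes, 1 of the 9 genes linked to HMGA2 and 3 of the 10 IGF2BP partners. The counts were 5 of the 9 target RNAs, 5 of the 14 genes of N6-methyladenosine and 3 of the 6 cold shock genes. The share over expressed protein-coding genes was 15.2%. Of the 16 let-7 locus entries, 13 were at 0 in both pools and could not be compared. Intervals were apart for 0 of the 3 host genes. On log2(TPM + 1), the ratio of replicate 2 to replicate 1 was 0.32 for Tut4 and -0.26 for Ccnd1.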

How the data were processed

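Each library's gene and transcript table was used as deposited. A text file that the authors deposited says that every table comes from the transcriptome alignments of a single replicate on mm10 (GRCm38), annotated with GENCODE M4. No source used here names the aligner or quantifier. In the authors' tables, expected counts are estimated reads per feature that need not be whole. The deposited TPM are per length and cover every feature and the spike-ins. FPKM, also deposited, take length and depth into account. The deposited interval bounds, a signal in TPM units, belong to the posterior mean TPM, and no source used here gives their level. The deposited percent is each transcript's share of its gene's TPM. A later deposit named in the series title was not used here.

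GENCODE M21, which uses the same build, gave symbols, classes and exons through the unversioned identifiers and named 42462 of 43346 mouse genes. Some models were revised since M4: Hmga1-203 has 1635 bases in the tables and 1595 in M21, and Hmga1-205 has 529 and 1045. The long and short forms of Hmga1 were assigned from M21 codons. Whether the quantified models held the same coding sequence was not tested. Levels were compared as log2(TPM + 1), a scale that understates the change of low genes. Genes were called apart where 1 was higher in both pools and the smaller of the 2 differences exceeded what either gene differed by between pools. Detection was set at 1 TPM. Means and SDs are over 2 pools, so they measure the spread between these pools. Intervals cover counting and read assignment error only. The genes and gene lists were chosen with earlier results of these data known. Every member is named; from each pathway list, the 4 highest and those under 1 TPM in a pool, plus some genes chosen for their role after their values were seen, and the marker lists are given as counts and sums. A gene that this rule names is not reported here.

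Rounded expected counts were scaled by edgeR 4.0.16 (TMM) and DESeq2 1.42.0 (size factors) as alternatives, over 18941 genes. The scaling and the rule for genes apart were tested on simulated data. Seed matches were searched on the transcript strand in M21 3′UTRs of 1 coding transcript per gene; for each member this was its most abundant one. Copies were sought with blastn 2.17.0. Other steps used Python 3.11.15, pandas 2.3.3 and R 4.3.3. Alternatives were other units, thresholds, pseudocounts, scalings, counts not per length, each pool alone and coding transcripts only.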

Additional observations from a re-analysis of the deposited data

How the results depend on the processing

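Of 83 alternative values for the main results, 76 were classed as the same, 3 as moved and 4 as reversed. The number of genes detected, 6, was classed as the same also where it was 7. That was so with the posterior mean TPM, at 0.5 TPM and in replicate 1 alone. Of 124 further values, for single genes and transcripts, 90 were classed as the same and 34 as moved. The order of the 7 genes and the number of steps apart stayed at 7 ranks and 5 steps with the posterior mean TPM. They also did so with FPKM and TPM over mouse genes only. These 2 units multiply all genes of a pool by 1 factor, so the order within a pool could not change. Ratios between genes could change only through the added 1. By expected counts, not per length, the order was another, with Igf2bp1 at rank 1, Igf2bp3 at rank 2 and Hmga1 at rank 3. The median level of the 7 genes, 68.4 TPM, was 66.5 with the posterior mean TPM, 75.0 with TPM over mouse genes only and 41.2 in FPKM, which is another unit. Comparisons within the Igf2bp family depended on what was counted. With expected counts, not per length, the log2 ratio was 1.20 for Igf2bp1 over Igf2bp2 and 0.0860 for Igf2bp3 over Igf2bp2. With coding transcripts only, a setting chosen after seeing the data, these were 0.79 and 0.65. The main values were -0.05 and -0.32. Lin28a reached 1 TPM in both pools with the posterior mean, at 1.61 and 1.38 TPM. The log2(TPM + 1) ratio of Lin28b over Lin28a was then 1.57, against 1.93. Leaving out either pool gave 1.78 to 2.08 for Lin28b over Lin28a and 67.2 to 69.7 TPM for the median level. At 59 and 54 counts, depth limits what can be said of Lin28a and its transcripts. No paired analysis was possible because both pools belong to 1 group, with no other group to pair with.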
